A study of Mus musculus with 12 samples.

Results

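Protein phosphatase 2A (PP2A) is the serine/threonine phosphatase that the histone chaperone SET binds and inhibits. Transcripts of 10 of its subunit genes were described here in mouse stem cells with SET knocked down. The genes were chosen by symbol: Ppp2ca and Ppp2cb (catalytic), Ppp2r1a and Ppp2r1b (scaffold), and Ppp2r2a, Ppp2r2b, Ppp2r2c, Ppp2r3a, Ppp2r5a and Ppp2r5e (regulatory). Each was represented by 1 probe set, the one with the highest mean over the 12 arrays, and all 10 were found among the 19938 genes of the array table. The cells were R1 embryonic stem cells infected with a scrambled control or carrying a SET knockdown, in lines labelled KD1 and KD2. Growing stem cells (ESC) were kept in 15% serum with leukemia inhibitory factor (LIF) at 1000 U/ml. Differentiated cells (RA) had 1 µM retinoic acid for 4 days in 10% serum, with the factor withdrawn. Retinoic acid, serum and LIF thus changed together and cannot be told apart. This gave 6 groups (scrambled, KD1 and KD2, each as ESC and RA) of 2 arrays, labelled biological replicates. Each knockdown was 1 line, so an effect of the knockdown and a property of the line cannot be told apart. The labels name no shared culture or day, and p-values measure the spread between these arrays.

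A PP2A holoenzyme joins a catalytic subunit to a scaffold subunit and to 1 of many regulatory subunits, which set where the enzyme goes and what it acts on. The regulatory subunits form unrelated families: B or PR55 (the Ppp2r2 genes), B″ or PR72 (Ppp2r3a) and B′ or B56 (the Ppp2r5 genes). The catalytic and scaffold genes are expressed in nearly all cell types, whereas Ppp2r2b and Ppp2r2c are best known from brain.

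Promoters of 4 members are shown because their transcripts carry the patterns described below: Ppp2ca, within a narrow range on every array; Ppp2r2c, lower in RA and lower in KD1 stem cells; Ppp2r3a, higher in RA; and Ppp2r5a, higher in KD1. RefSeq entries were matched for 6 of 10 members. Each sequence is the 250 bases before an annotated start, on the gene's strand, in build GRCm38.p6. Ppp2ca lies at chr11:52098574-52098823 (plus), Ppp2r2c at chr5:36868260-36868509 (plus) and Ppp2r5a at chr1:191397042-191397291 (minus). Ppp2r3a has 2 annotated starts, at chr9:101251833-101252082 and chr9:101199074-101199323 (both minus). Capitals mark matches to a motif searched on both strands.
Ppp2ca: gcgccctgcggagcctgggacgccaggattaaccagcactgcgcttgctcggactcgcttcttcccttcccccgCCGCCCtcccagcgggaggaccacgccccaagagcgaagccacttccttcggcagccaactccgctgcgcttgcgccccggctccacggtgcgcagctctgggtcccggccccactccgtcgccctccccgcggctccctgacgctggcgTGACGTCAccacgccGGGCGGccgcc
Ppp2r2c: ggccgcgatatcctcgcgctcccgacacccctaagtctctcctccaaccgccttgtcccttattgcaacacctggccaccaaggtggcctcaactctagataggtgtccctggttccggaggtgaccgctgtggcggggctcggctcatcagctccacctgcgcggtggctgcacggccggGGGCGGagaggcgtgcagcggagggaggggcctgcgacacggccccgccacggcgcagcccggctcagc
Ppp2r3a start 1: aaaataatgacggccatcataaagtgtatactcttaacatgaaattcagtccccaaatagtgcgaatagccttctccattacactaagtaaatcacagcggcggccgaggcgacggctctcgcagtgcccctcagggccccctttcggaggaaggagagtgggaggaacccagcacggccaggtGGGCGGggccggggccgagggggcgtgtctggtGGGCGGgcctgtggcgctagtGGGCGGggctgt
Ppp2r3a start 2: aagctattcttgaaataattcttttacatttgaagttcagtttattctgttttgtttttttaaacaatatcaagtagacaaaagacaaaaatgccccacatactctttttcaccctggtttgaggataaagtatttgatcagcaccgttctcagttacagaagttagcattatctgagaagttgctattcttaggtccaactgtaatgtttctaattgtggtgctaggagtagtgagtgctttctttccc
Ppp2r5a: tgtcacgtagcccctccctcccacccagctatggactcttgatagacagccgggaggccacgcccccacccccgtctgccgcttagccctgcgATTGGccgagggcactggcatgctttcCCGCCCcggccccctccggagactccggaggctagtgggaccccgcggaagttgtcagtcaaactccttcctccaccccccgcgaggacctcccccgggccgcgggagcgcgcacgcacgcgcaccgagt
The motifs were the GC box (GGGCGG, in 32.7% of 32851 RefSeq promoters of this length), the cyclic AMP response element (TGACGTCA, 1.5%), the CCAAT box (CCAAT, 33.8%), the TATA box (TATAAA, 12.4%) and the retinoid receptor half-site (AGGTCA, 14.0%); none contains another. The Ppp2ca window held a cyclic AMP response element at position -26 from the start and GC boxes at -176 (minus strand) and -11. Ppp2r2c held 1 GC box at -69. The first Ppp2r3a start had GC boxes at -66, -33 and -12, and its second start had no match. Ppp2r5a held a GC box at -130 and a CCAAT box at -157, both on the minus strand. Neither AGGTCA nor TATAAA was found in the 5 windows. The second Ppp2r3a window was 34.0% G and C, against 60.4% for the first and 69.6% to 73.6% for the other 3 windows; the median of all promoters was 52.4%. These matches describe letters only.

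The array reports log2 intensities, on which 1 unit is a 2-fold difference; levels were compared within a gene and not between genes. The array medians lay between 7.17 and 7.24. On a pair of probe sets that Set shares with BC085271, KD1 stem cells stood at 58.2% and 59.5% of the scrambled level and KD1 RA cells at 48.1% and 51.8%. On these probe sets the differences of KD2 replicate 1 from scrambled were -0.67 and -0.74 in ESC and -0.59 and -0.64 in RA. The probe sets of Set alone were also lower in KD1 stem cells but not in KD1 RA cells, where they differed by 0.10 and 0.24 from scrambled. They averaged 8.60 and 7.13 in scrambled ESC and 6.57 and 5.96 in scrambled RA. The RA levels lay under the array medians, so these probe sets may be too dim there to show a knockdown. Scrambled RA minus ESC was -2.04 and -1.17 on them, and -0.54 and -0.66 on the shared pair. On the probe sets of Set alone KD2 replicate 1 differed from scrambled by -0.06 and 0.02 in ESC and by 0.22 and 0.24 in RA. A pair of arrays went against their labels: the array labelled ESC KD2 replicate 2 correlated at a mean r of 0.991 with RA arrays and 0.952 with ESC arrays, and the array labelled RA KD2 replicate 2 at 0.952 and 0.991. Results are therefore given for all 12 arrays and for the 10 without these. Naive stem cell markers (8 of 8 measured) averaged 11.76 to 12.24 on the 5 remaining ESC arrays and 8.11 to 9.23 on the 5 remaining RA arrays. Retinoic acid response genes (8 of 8) averaged 6.62 to 6.97 and 10.66 to 11.22.

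**Figure D1:**
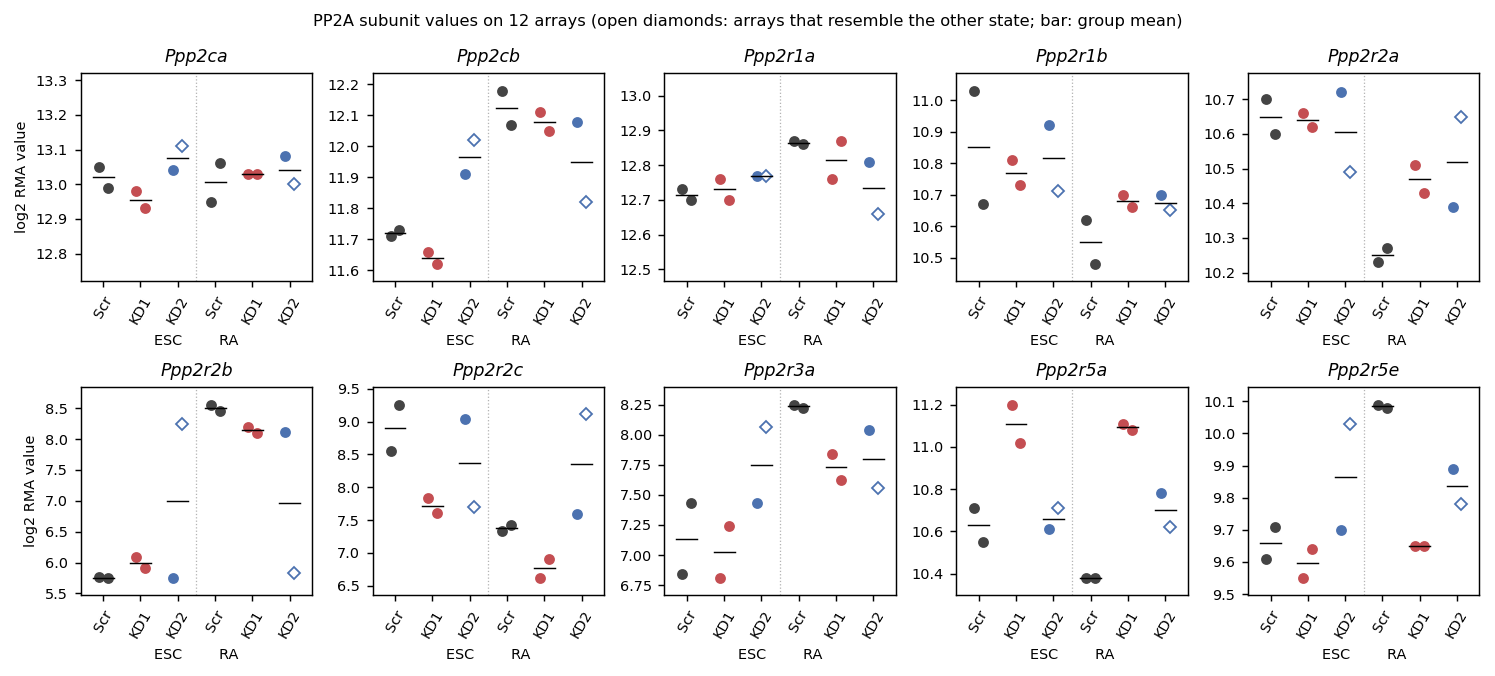
Log2 intensity of each of the 10 PP2A genes (1 panel each) on every array, by group, with bars at group means and a scale for each panel; open diamonds are the KD2 replicate 2 arrays, which go against their labels. Ppp2ca stays between 12.93 and 13.11 on all 12 arrays, while Ppp2r2b is at 5.75 to 6.09 on the 5 remaining ESC arrays and 8.10 to 8.56 on the 5 remaining RA arrays.

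Between scrambled ESC and RA the regulatory subunit genes differed in opposite directions, while Ppp2ca, the main catalytic gene in most cells, had no called change on the deposited scale. Of the 10 genes, limma called 2 higher and 0 lower in RA over 12 arrays at a Benjamini-Hochberg adjusted p under 0.05. Over all genes 13.8% were called (8.14% higher and 5.66% lower). Over 10 arrays 4 genes rose (Ppp2r2b, Ppp2r3a, Ppp2r5e and Ppp2cb) and 2 fell (Ppp2r2c and Ppp2r2a), against a background of 42.6% (21.8% higher, 20.8% lower), so that the count of 6 is read as no property of these genes. The median difference of the members was 0.07, beside -0.04 for all genes. Centring each array on its median gene lowered the median of all genes by a further 0.19, to -0.23. It changed the members called over 12 arrays to 2 higher and 3 lower, and over 10 arrays to 3 higher and 5 lower, with 27.0% and 53.7% of all genes then called. The share of all called genes that were higher moved from 59.0% to 30.5% over 12 arrays and from 51.1% to 30.5% over 10. With the replicate number as a block within each state, 4 members were called over 12 arrays (Ppp2r2b, adjusted p = 0.0462, and Ppp2r5e, 0.0461, joined Ppp2cb and Ppp2r3a; 25.9% of all genes) and 9 over 10, all but Ppp2ca (51.6%); 1 block over both states gave 0 over 12 arrays (1.19%) and 7 over 10 (45.0%). Markers of other cell types moved between the states: fibroblast markers (8 of 8 measured) averaged 6.94 to 7.27 on the 5 ESC arrays and 7.92 to 8.53 on the 5 RA arrays, and extraembryonic endoderm markers 7.46 to 8.44 and 9.33 to 11.94. Single fibroblast markers differed in direction. Thy1 read 8.33 to 9.75 in ESC and 6.95 to 7.70 in RA, while Dcn read 5.84 to 6.75 and 9.90 to 11.18. Lum overlapped, at 4.17 to 4.50 and 4.41 to 5.03. The part of other cell types in the members' differences was not tested. In bulk RNA, fewer cells of a type and less RNA per cell cannot be told apart.

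Of the catalytic subunits, Ppp2ca read 13.05 and 12.99 in scrambled ESC, 12.98 and 12.93 in KD1 ESC and 13.04 in KD2 ESC replicate 1. In RA it read 12.95 and 13.06, 13.03 and 13.03, and 13.08. Scrambled ESC and RA arrays overlapped, while both KD1 stem cell arrays lay below the scrambled stem cell arrays and below the KD1 RA arrays. The RA minus ESC difference in scrambled cells was -0.02 (SE 0.05, 95% interval -0.14 to 0.10, 10 arrays). After centring this became -0.22, with an adjusted p in limma of 0.0543 over 12 arrays and 0.0306 over 10. Ppp2cb, which encodes a nearly identical enzyme, read 11.71 and 11.73 in scrambled ESC and 12.18 and 12.07 in scrambled RA. KD1 stem cells read 11.66 and 11.62, KD1 RA cells 12.11 and 12.05, and KD2 replicate 1 read 11.91 and 12.08. The 5 RA arrays of Ppp2cb all lay above the 5 ESC arrays. The scrambled difference was 0.40, or 1.32-fold (SE 0.10, limma adjusted p = 0.0425 over 12 arrays; SE 0.07, 0.00147 over 10). The same comparison in KD1 gave 0.44 (adjusted p = 0.0318 and 0.00101). With centred arrays Ppp2cb was 0.21 higher in scrambled RA, with an adjusted p of 0.102 over 12 arrays and 0.0465 over 10.

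No scaffold gene was called on the deposited scale without a replicate block. Ppp2r1a, the main scaffold, ranged from 12.66 to 12.87 over all 12 arrays; its scrambled difference of 0.15 (interval 0.03 to 0.28, adjusted p = 0.0556 over 10 arrays in limma) turned to -0.04 with centred arrays. Ppp2r1b read 11.03 and 10.67 in scrambled ESC and 10.62 and 10.48 in scrambled RA. Its first ESC array was 0.36 above the second, more than the states differed, and the difference of -0.30 (SE 0.13) had an adjusted p of 0.0958 over 10 arrays and 0.172 over 12; centring took it to -0.49 (adjusted p = 0.0159 over 10 arrays, 0.0592 over 12).

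The B or PR55 genes diverged. Ppp2r2b, the Bβ subunit, read 5.76 and 5.75 in scrambled ESC, 6.09 and 5.91 in KD1 ESC and 5.75 in KD2 ESC replicate 1. The RA arrays read 8.56 and 8.46 (scrambled), 8.20 and 8.10 (KD1) and 8.11 (KD2 replicate 1). The states were fully separate, with scrambled RA arrays highest and both knockdown lines below them. These ESC readings lay under the array medians of 7.17 to 7.24, so the fold is taken from a dim signal. The scrambled difference was 2.76, or 6.76-fold (SE 0.11, interval 2.50 to 3.01, limma adjusted p = 6.09e-07 over 10 arrays). Over 12 arrays the SE was 0.82 and the adjusted p 0.053. The array labelled ESC KD2 replicate 2 read 8.25 and that labelled RA KD2 replicate 2 read 5.83, each at the level of the other state. Neuronal markers (8 of 8 measured) averaged 7.79 to 8.07 on the 5 ESC arrays and 7.13 to 7.68 on the 5 RA arrays. Single markers differed in direction: Stmn2 read 12.15 to 12.65 in ESC and 7.76 to 10.04 in RA, while Syt1 read 6.63 to 6.95 and 8.04 to 9.47, and Dcx 4.99 to 5.19 and 5.38 to 6.33. Their part in the Ppp2r2b difference was not tested.

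Ppp2r2c, the Bγ subunit, went the other way. It read 8.55 and 9.26 in scrambled ESC and 7.33 and 7.43 in scrambled RA. In KD1 it read 7.83 and 7.61 in ESC and 6.62 and 6.91 in RA, and in KD2 replicate 1 it read 9.04 and 7.59. The scrambled stem cell arrays differed from each other by 0.71, and the 5 ESC and 5 RA arrays were separated only narrowly, with the lowest ESC array at 7.61 and the highest RA array at 7.59. The scrambled fall was -1.53, or 2.89-fold (SE 0.22, interval -2.02 to -1.03, adjusted p = 0.000468 in limma over 10 arrays; SE 0.53, 0.0742 over 12). Ppp2r2a, the widely expressed Bα subunit, read 10.70 and 10.60 in scrambled ESC and 10.23 and 10.27 in scrambled RA. KD1 read 10.66 and 10.62, then 10.51 and 10.43, and KD2 replicate 1 read 10.72 and 10.39. All 5 RA arrays of Ppp2r2a were below the 5 ESC arrays. The scrambled difference was -0.41 (SE 0.10, adjusted p = 0.00849 over 10 arrays in limma; 0.073 over 12), and the call was lost without RA scrambled replicate 1 (adjusted p = 0.051).

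Ppp2r3a, of the calcium-binding B″ family, rose. It read 6.84 and 7.43 in scrambled ESC and 8.25 and 8.22 in scrambled RA. In KD1 it read 6.81 and 7.24 in ESC and 7.84 and 7.62 in RA, and in KD2 replicate 1 it read 7.43 and 8.04. The ESC arrays spread widely within a group, but none reached an RA array. The scrambled difference was 1.10, or 2.14-fold (SE 0.28, adjusted p = 0.0444 over 12 arrays in limma; SE 0.21, 0.00245 over 10). Leaving out any of the 8 scrambled or KD1 arrays from the 12 lost the call of Ppp2r3a and of Ppp2cb. Far fewer of all genes were called in these fits too, while the differences stayed at 0.80 to 1.39 and 0.35 to 0.46. From the 10 arrays, no single omission lost either call.

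Of the B56 genes, Ppp2r5e read 9.61 and 9.71 in scrambled ESC and 10.09 and 10.08 in scrambled RA. KD1 read 9.55 and 9.64 in ESC and 9.65 and 9.65 in RA, and KD2 replicate 1 read 9.70 and 9.89. The rise in scrambled cells was 0.42 (SE 0.11, adjusted p = 0.0118 over 10 arrays in limma; 0.0784 over 12); it was lost from the 10 arrays without ESC scrambled replicate 1 (0.0521) or RA scrambled replicate 1 (0.0616), and with centred arrays (0.23, adjusted p = 0.0992). Ppp2r5a read 10.71 and 10.55 in scrambled ESC and 10.38 and 10.38 in scrambled RA. Its difference of -0.25 had an adjusted p of 0.0811 over 10 arrays and 0.168 over 12, and became -0.45 after centring (adjusted p = 0.00977 and 0.0414).

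The RA and ESC arrays without the displaced pair did not overlap for 5 of 10 members (Ppp2cb, Ppp2r2a, Ppp2r2b, Ppp2r2c and Ppp2r3a). The same held for 36.9% of all genes.

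**Figure D2:**
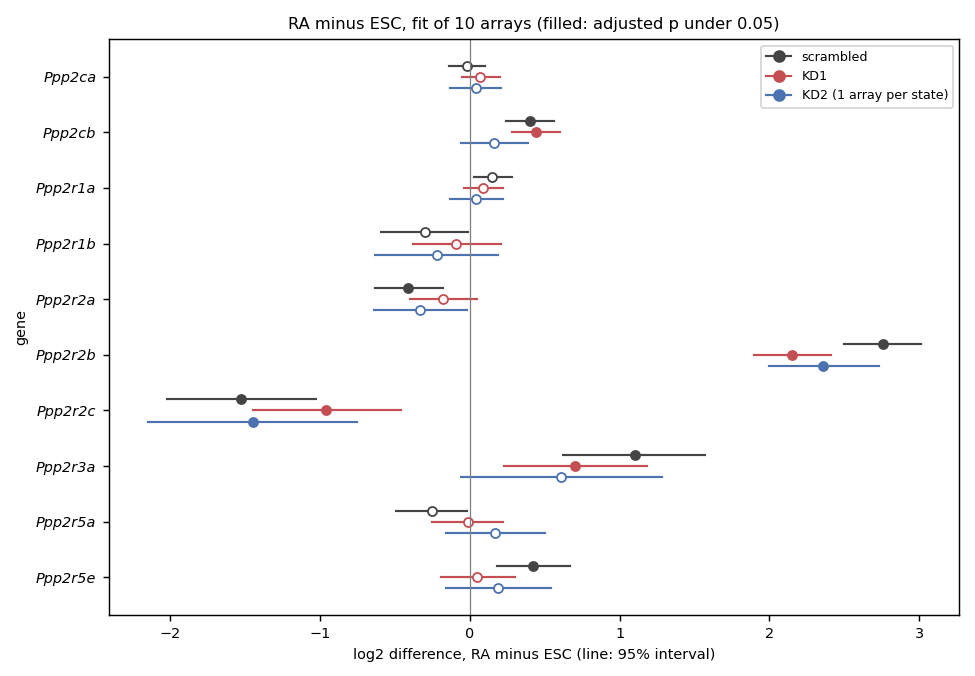
Log2 difference between RA and ESC for each PP2A gene in scrambled, KD1 and KD2 cells from the limma fit of 10 arrays, with 95% intervals as lines; filled points have an adjusted p under 0.05. Ppp2r2b is called higher and Ppp2r2c lower in all 3 lines, at 2.76, 2.15 and 2.36 and at -1.53, -0.96 and -1.45.

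The RA and ESC arrays were also compared within each knockdown line. In KD1, Ppp2cb alone was called over 12 arrays (background 11.3%, 7.02% higher), but not with centred arrays. Leaving out any of the 8 scrambled or KD1 arrays also lost the call, with differences of 0.41 to 0.47. Fewer of all genes were called in these fits too. Over 10 arrays, 3 of 10 members rose and 1 fell (background 41.0%, with 20.3% higher and 20.8% lower): Ppp2r2b by 2.15 (interval 1.90 to 2.41, limma adjusted p = 2.02e-06), Ppp2r3a by 0.70 (0.0246), Ppp2cb by 0.44, while Ppp2r2c fell by 0.96 (0.00696). Centring lowered the median of all genes in KD1 by 0.12 and added Ppp2r2a to the called (-0.30, adjusted p = 0.0448). Of the 4 called on the deposited scale, Ppp2r2c was lost without RA KD1 replicate 1 (0.0654). Ppp2r3a was lost without ESC KD1 replicate 1 (0.163), RA KD1 replicate 1 (0.15) or RA KD1 replicate 2 (0.0559). Ppp2r5e, called in scrambled cells over 10 arrays, differed by 0.05 in KD1 (interval -0.19 to 0.30). The block within each state added Ppp2r3a to Ppp2cb over 12 arrays (adjusted p = 0.0235; 20.7% of all genes called).

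In KD2, over 12 arrays 0 of 10 members and 0.0% of all genes were called by limma, with 0 members and 344 genes at an unadjusted p under 0.05; Ppp2r2b then differed by -0.03 (SE 0.82). With 1 KD2 array per state, assumed to vary like the other groups, 2 of 10 members were called (background 20.5%, 11.0% higher and 9.46% lower): Ppp2r2b at 2.36 (SE 0.16, adjusted p = 6.37e-05) and Ppp2r2c at -1.45 (SE 0.31, 0.0112). Ppp2r3a was at 0.61 (interval -0.06 to 1.28) and Ppp2cb at 0.16 (interval -0.06 to 0.39).

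Whether KD1 answered differently from scrambled cells was tested as the difference of their RA responses. None of the 10 members was called by limma over 12 arrays (background 0.261%) or over 10 (background 4.82%). At an unadjusted p under 0.05 there were 0 members and 1601 of 19938 genes over 12 arrays. Over 10 arrays there were 2 members, beside 3503 genes. The 2 were Ppp2r2b, whose response in KD1 minus that in scrambled was -0.61 (interval -0.97 to -0.24, adjusted p = 0.0727), and Ppp2r5e, at -0.37 (interval -0.72 to -0.02, adjusted p = 0.252). With a replicate block within each state over 10 arrays, Ppp2r2b was called (adjusted p = 0.0251; 14.4% of all genes called).

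Knockdown against scrambled cells within a state asks which subunit transcripts differ when SET is lowered. In RA, Ppp2r5a, a B56 subunit, was higher in KD1. It read 11.11 and 11.08 in KD1 against 10.38 and 10.38 in scrambled and 10.78 in KD2 replicate 1. In ESC it read 11.20 and 11.02 in KD1, 10.71 and 10.55 in scrambled and 10.61 in KD2 replicate 1. All 4 KD1 arrays lay above every other array of Ppp2r5a. The RA difference was 0.72, or 1.65-fold (SE 0.12, limma adjusted p = 0.0234 over 12 arrays; SE 0.10, interval 0.49 to 0.96, 0.00254 over 10). The ESC difference of 0.48 (interval 0.25 to 0.72) had an adjusted p of 0.0593 over 10 arrays and 0.364 over 12; with a replicate block over 10 arrays it was called (0.0318, and 0.00288 with the block within each state).

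Over 12 arrays Ppp2r5a was the 1 member called of 10 in KD1 RA cells (background 2.32%, 1.58% higher), and over 10 arrays 1 rose and 1 fell (background 12.1%, 5.39% higher and 6.69% lower). The share of all called genes that were higher moved with centring from 44.6% to 59.8% over 10 arrays. The 12-array call of Ppp2r5a was lost without RA scrambled replicate 1 or 2, or RA KD1 replicate 1 or 2. Its difference stayed at 0.70 to 0.74, and fewer of all genes were called in these fits too. Over 10 arrays the call held under each omission. Ppp2r5a has 4 probe sets, and its KD1 minus scrambled differences were 0.72, 0.47, 0.50 and 0.43 among RA arrays and 0.48, 0.27, 0.29 and 0.32 among stem cell arrays. The mean of the 4 gave 0.53 in RA (adjusted p = 0.116 over 12 arrays and 0.00755 over 10). Extraembryonic endoderm markers (8 of 8 measured) moved with this contrast, averaging 11.88 and 11.94 in KD1 RA, 9.33 and 9.44 in scrambled RA, 8.14 and 8.02 in KD1 ESC and 7.52 and 7.46 in scrambled ESC. In KD2 replicate 1 these markers averaged 8.44 in ESC and 10.18 in RA, where Ppp2r5a read 10.61 and 10.78. The part of these markers' cells in the Ppp2r5a difference, and in the other KD1 differences given here, was not tested.

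Ppp2r5e was the member that fell in KD1 RA cells over 10 arrays, with a difference of -0.43 (SE 0.11, limma adjusted p = 0.0332; 0.255 over 12). It was lost with centred arrays (-0.35, 0.0724) and without RA scrambled replicate 1 or 2, or RA KD1 replicate 1 or 2. Under these omissions the difference stayed at -0.44 to -0.43, and fewer of all genes were called too. Not called in KD1 RA cells were Ppp2r2c at -0.61 (adjusted p = 0.117), Ppp2r3a at -0.50 (0.181) and Ppp2r2b at -0.36 (0.0774), all over 10 arrays. With the replicate block within each state these 3 were called (0.0389, 0.00856 and 0.0347), making 5 of 10 members where 24.0% of all genes were called.

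In stem cells, Ppp2r2c was lower in KD1, whose arrays read 7.83 and 7.61 against 8.55 and 9.26 in scrambled. None of 10 members was called over 12 arrays (background 0.0652%). Ppp2r5a, and not Ppp2r2c, was the 1 member at an unadjusted p under 0.05, beside 1507 genes. Over 10 arrays Ppp2r2c was called (background 1.92%, 1.08% lower), with a difference of -1.18, or 2.27-fold (SE 0.22, interval -1.68 to -0.69, limma adjusted p = 0.0306); over 12 arrays the SE was 0.53 and the adjusted p 0.667. The call held in 3 of 10 omissions of 1 array, with values from -1.54 to -0.83. It was lost without ESC KD1 replicate 1 or 2, without ESC scrambled replicate 2, and on leaving out any RA scrambled or RA KD1 array. Those RA omissions left the difference at -1.18, while fewer of all genes were called.

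In KD2 no member was called without a replicate block. None of 10 members was called over 12 arrays in KD2 stem cells (background 0.0853%) or KD2 RA cells (background 0.271%). At an unadjusted p under 0.05 there was 1 member in stem cells (Ppp2cb) and 1 in RA (Ppp2r5a). Of all 19938 genes, 2057 and 2590 passed it. Over 10 arrays, with 1 KD2 array per state, Ppp2r2c in KD2 stem cells was 0.13 above scrambled (interval -0.47 to 0.74). Ppp2r5a there was -0.02 from scrambled (interval -0.30 to 0.27). The other 3 probe sets of Ppp2r5a differed by -0.25, -0.26 and -0.25 in KD2 stem cells and by 0.33, 0.40 and 0.29 in KD2 RA cells, and the mean of all 4 by -0.19 (adjusted p = 0.607) and 0.36 (0.259). In KD2 RA cells Ppp2r5a was at 0.41 (interval 0.12 to 0.69, adjusted p = 0.236) and Ppp2r2b at -0.40 (interval -0.71 to -0.09, adjusted p = 0.297). With a replicate block within each state over 10 arrays Ppp2r5a was called in KD2 RA cells (0.40, adjusted p = 0.0418; 5.05% of all genes called).

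A direct test of KD1 against KD2 was run over 10 arrays. In stem cells it called 1 of 10 members (background 2.19%, 1.67% lower): Ppp2r2c, at -1.32 as KD1 minus KD2 (SE 0.27, limma adjusted p = 0.0433). That call held in 3 of 9 omissions and was at 0.508 over 12 arrays. It was lost without ESC KD1 replicate 1 or 2, and on leaving out any RA scrambled or RA KD1 array. Those RA omissions left the difference at -1.32, while fewer of all genes were called. Ppp2r5a was 0.50 higher in KD1 stem cells (interval 0.21 to 0.79, adjusted p = 0.0971). In RA 0 of 10 were called over 10 arrays (background 3.72%; 2 members at an unadjusted p under 0.05) and over 12 (background 1.34%; 2 members): Ppp2r2c was at -0.82 (interval -1.43 to -0.21) and Ppp2r5a at 0.32 (interval 0.03 to 0.60). The block within each state called 3 members in stem cells (Ppp2r2c, Ppp2r3a at -0.66 and Ppp2r5a at 0.58; 7.95% of all genes) and 1 in RA (Ppp2r2c at -0.92, adjusted p = 0.0458; 9.64%).

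**Figure D3:**
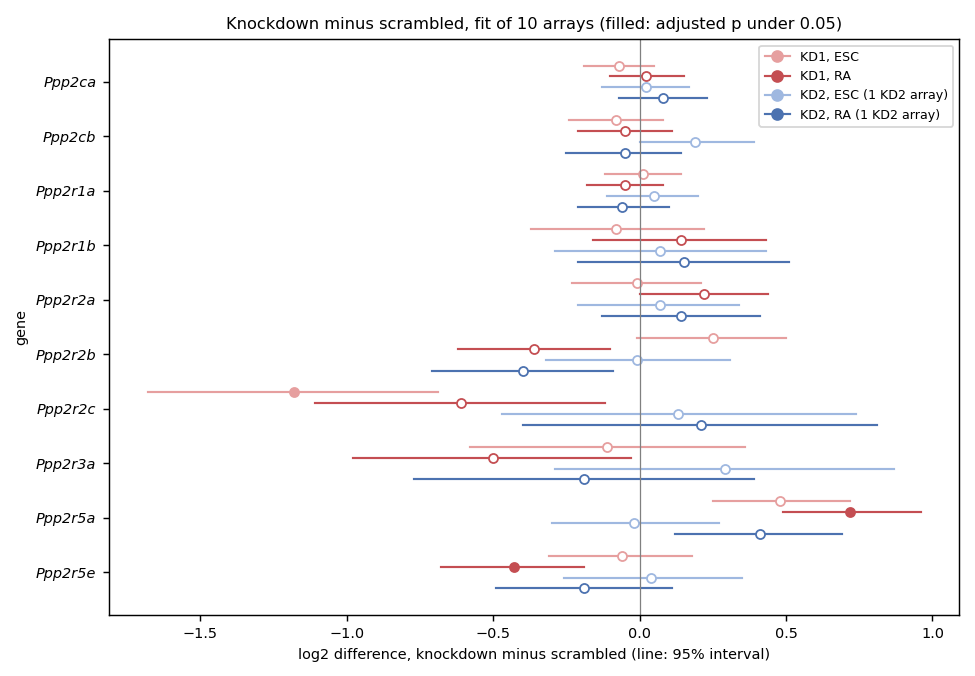
Log2 difference between each knockdown line and scrambled cells for each PP2A gene, in ESC and in RA, from the limma fit of 10 arrays with 95% intervals as lines; filled points have an adjusted p under 0.05. KD1 shows Ppp2r5a at 0.48 in ESC and 0.72 in RA and Ppp2r2c at -1.18 and -0.61, while KD2, with 1 array per state, has no filled point.

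Genes with the most similar profile were sought for the 3 members whose group means spanned at least 1 log2 unit, by Pearson correlation over 12 arrays among 12287 genes. The arrays form separate ESC and RA clusters, and these values share that split. Nearest to Ppp2r2b were Hoxa5 (r = 0.998), Rarb (0.996), the retinoic acid receptor gene induced by its own ligand, and Nr2f2 (0.996). Nearest to Ppp2r2c were the homeobox gene Obox6 (0.988) and the Notch ligands Jag1 (0.968) and Jag2 (0.967). Obox6 read 7.12 and 7.48 in scrambled ESC, 6.04 and 5.98 in KD1 ESC and 7.16 in KD2 ESC replicate 1. Nearest to Ppp2r3a were Rgmb (0.982), Hyal3 (0.982) and Prkra (0.98).

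Around the 10 members, 5 lists of related genes were examined in the same fits of scrambled RA against ESC. Of all genes these called 13.8% over 12 arrays (8.14% higher, 5.66% lower) and 42.6% over 10 (21.8% higher, 20.8% lower). Among 8 other regulatory subunits and striatins, 1 fell over 12 arrays: Ppp2r2d, the remaining PR55 gene, at -0.95 (limma adjusted p = 0.0424; 0.000203 over 10). Over 10 arrays Strn3 (0.58), Strn4 (0.36) and Ppp2r5d (0.33) rose; with centred arrays 0 rose and 3 fell, where 53.7% of all genes were called and 30.5% of those were higher. The list's median was 0.29.

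Among 6 genes for assembly, methylation and turnover, 2 rose in both fits, also with centred arrays. Of all genes 8.14% rose over 12 arrays and 21.8% over 10. Mid1, whose product directs degradation of the catalytic subunit, rose by 3.51 (limma adjusted p = 0.0431; 5.55e-07 over 10). Ppme1, the methylesterase that demethylates the catalytic subunit, rose by 1.05 (0.0349; 0.000246). Centring over 10 arrays, where 53.7% of all genes were called and most of them lower, added 3 that fell. The list's median was 0.05. In KD1 RA cells over 10 arrays, the difference from scrambled was -0.67 for Mid1 (adjusted p = 0.0119), -0.50 for Ppme1 (0.0445) and 0.52 for Tiprl, a regulator of PP2A-like catalytic subunits (0.00894). Of all genes 12.1% were called there. With centred arrays Ppme1 was lost (-0.41, 0.072), while Mid1 (-0.59, 0.0269) and Tiprl (0.61, 0.00322) were called. Over 12 arrays 0 of 6 were called, where 2.32% of all genes were. At an unadjusted p under 0.05 there were 2 of 6, beside 2438 of 19938 genes.

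Among 9 genes for PP2A inhibitors other than Set, 1 rose and 2 fell over 12 arrays, and 2 rose and 5 fell over 10. Of all genes 8.14% rose and 5.66% fell over 12 arrays, and 21.8% rose and 20.8% fell over 10. Cip2a, which protects MYC from dephosphorylation, fell by 0.97 (limma adjusted p = 0.0376; 0.00026 over 10). Mastl, the kinase that turns Arpp19 and Ensa into inhibitors at mitosis, fell by 0.75 (0.0394; 0.00221), while Arpp19 itself rose by 0.57 over 10 arrays (0.00136; 0.0746 over 12). Fam122a rose by 0.77 (0.0473; 0.00124). The list's median was -0.32, beside -0.04 for all genes; with centred arrays 0 rose and 4 fell over 12, and 2 rose and 5 fell over 10, beside 27.0% and 53.7% of all genes called, of which 30.5% were higher in each. In KD1 against scrambled, 0 of 9 were called in either state and in either fit. Of all genes 0.0652% (12 arrays) and 1.92% (10 arrays) were called in ESC, and 2.32% and 12.1% in RA. At an unadjusted p under 0.05 there were 0 of 9 in ESC in both fits, beside 1507 and 3142 of 19938 genes. In RA there were 1 over 12 arrays and 3 over 10, beside 2438 and 4798 genes.

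**Figure D4:**
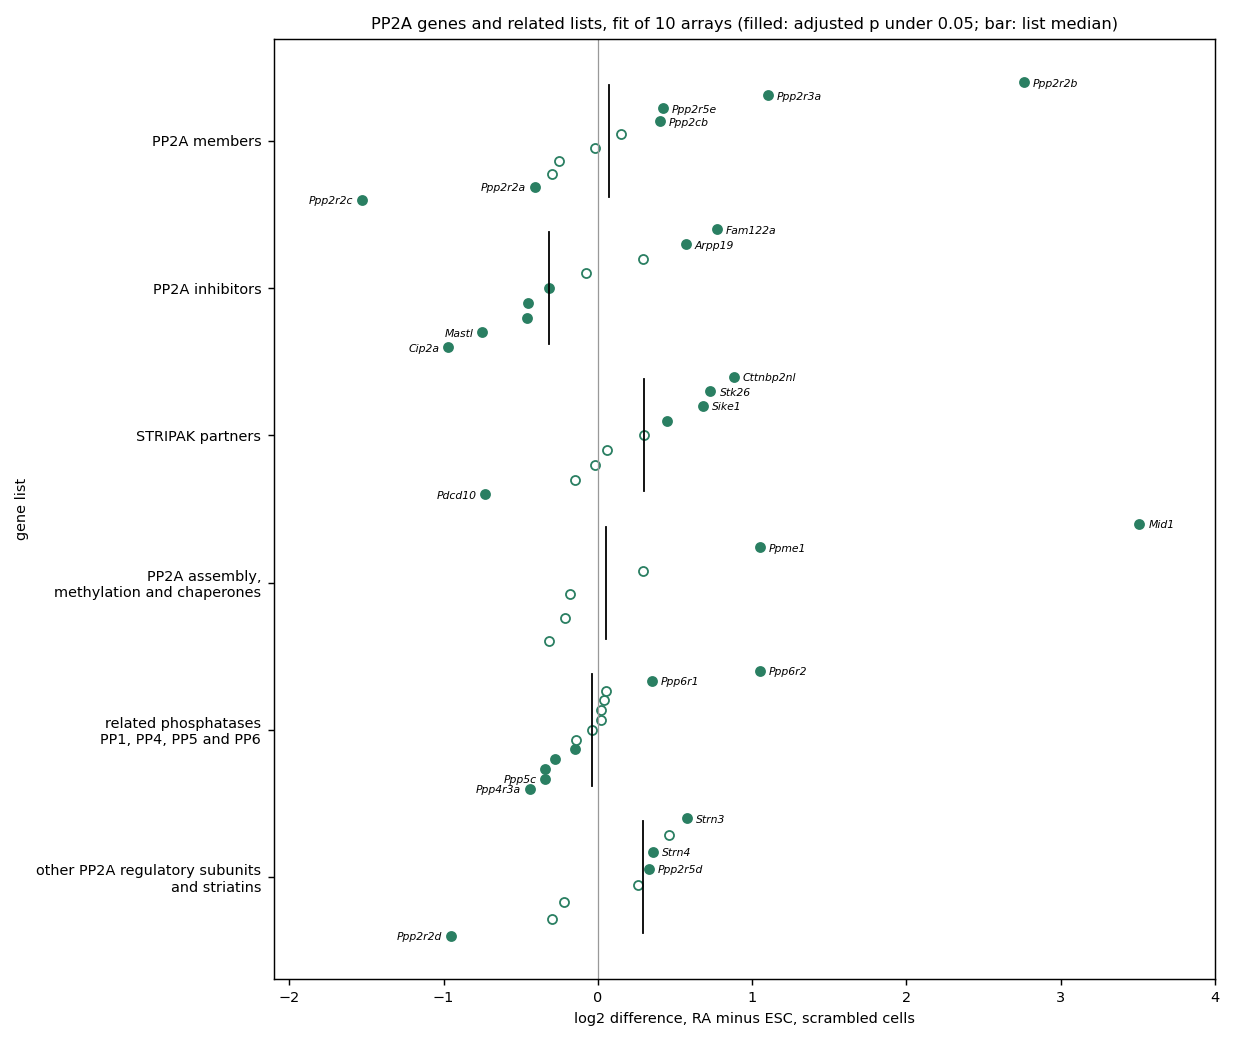
Log2 difference between RA and ESC in scrambled cells for the 10 PP2A genes and 5 related lists (rows), from the limma fit of 10 arrays; 1 point per gene, filled where the adjusted p is under 0.05, with a bar at each list's median. Members run from -1.53 (Ppp2r2c) to 2.76 (Ppp2r2b), and Mid1, at 3.51, is the point farthest right.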

How the data were processed

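RNA from 12 samples was hybridised to a 1-colour Affymetrix mouse gene array, starting from 300 ng of RNA. The deposited table gives log2 intensities, summarised by the authors with RMA (named, without a version, in the submitters' processing notes); the array's build was not given in the sources used here. Of 35556 probe sets, 21789 carried 1 symbol in the platform annotation and gave 19938 genes; 1621 with several symbols and 12146 not listed were left out. Of the members, 9 have 1 probe set and Ppp2r5a has 4.

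Group means were fitted over all genes with limma 3.58.1 in R 4.3.3 (eBayes with an intensity trend, Benjamini-Hochberg), with 2 arrays per group and 6 residual degrees of freedom over 12 arrays, 4 over 10. The fit was tested on simulated data without displaced arrays, so that test does not cover the arrays that go against their labels. The number of arrays limits the precision. Alternatives were single arrays left out, a replicate block, no trend, quantile normalization, median centring, means of probe sets and a filter on dim genes. The members, lists and the omission of 2 arrays were chosen with earlier results of these data known; KD1 against KD2, centring and probe set means over 10 arrays, and the promoters shown were chosen after the values were seen. All members were named, with at most 4 called genes per list and comparison. Deviations of same-numbered arrays correlated at 0.169 to 0.633 between groups within ESC, 0.141 to 0.197 within RA and -0.864 to 0.105 across states (-0.864 between the KD2 groups, whose replicate 2 arrays go against their labels). The labels give no source for a pairing; fits with the number as a block within each state, over 10 arrays added after the values were seen and with 2 residual degrees of freedom, are given beside the results they change. RefSeq promoters were matched by gene identifier, and entries on 1 chromosome were left out. No promoter was used for Ppp2cb, Ppp2r2a, Ppp2r2b and Ppp2r5e, which need not mean that RefSeq has none.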

Additional observations from a re-analysis of the deposited data

How the results depend on the processing

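Counts of the 10 members called are given by setting. The number of all genes called also moved with the array left out. A range of counts under omissions is therefore read as no property of the members. RA against ESC in scrambled cells gave 2 over 12 arrays and 6 over 10. Leaving out single arrays gave 0 to 5 from the 12 and 4 to 7 from the 10, median centring gave 5 (12 arrays, 27.0% of all genes called) and 8 (10 arrays, 53.7%), and probe set means over 10 arrays gave 6. KD1 cells in the same comparison gave 1 and 4, with 0 to 2 and 2 to 4 under omissions, centring 0 and 5 (13.7% and 48.9% of all genes), and probe set means over 10 arrays 4. KD2 cells gave 0 over 12 arrays and 2 over 10, and 2 under each 10-array setting; there Ppp2r2b, RA against ESC in KD2 cells, reversed from -0.03 to 2.36 (2.24 when centred; -1.28 to 2.36 over the omissions). KD1 against scrambled in ESC gave 0 and 1, with 0 to 2 under 10-array omissions and 1 under centring or probe set means over 10 arrays. KD1 against scrambled in RA gave 1 and 2, with 0 to 1 and 1 to 3 under omissions, 0 with probe set means over 12 arrays and 2 over 10. KD1 against KD2 gave 0 and 1 in ESC (0 to 1 under 10-array omissions, and 1 under centring or probe set means over 10 arrays) and 0 and 0 in RA (0 to 1 under omissions). The difference of RA responses gave 0 and 0 (0 to 1 under 10-array omissions). With the replicate number as a block, the scrambled comparison gave 0 over 12 arrays, 7 over 10 and 4 with the block within each state; for KD1 these were 1, 4 and 2, and the 10-array block gave 2 for KD2, 2 for KD1 against scrambled in each state and 1 for KD1 against KD2 in ESC. Over 10 arrays the block within each state gave 9 of 10 for the scrambled comparison (51.6% of all genes called), 4 for KD1 (51.0%), 2 for KD2, 2 for KD1 against scrambled in ESC (10.5%) and 5 in RA (24.0%), 1 for KD2 against scrambled in RA, 3 and 1 for KD1 against KD2 in ESC and RA, and 1 for the difference of RA responses. Of 3340 values of single members under alternatives, 3108 kept their direction and side of the threshold or were called in neither fit, 33 lost the call, 186 gained it and 13 reversed, all 13 of them Ppp2r2b in KD2 cells. The cause of these moves was not tested, except that the KD2 replicate 2 arrays, each at the level of the other state, widen the SE of Ppp2r2b from 0.11 to 0.82.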

Other observations

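Striatins carry PP2A into the STRIPAK complex, where it opposes germinal centre kinases. Among 9 STRIPAK partner genes, scrambled RA cells had 1 higher (Cttnbp2nl, 0.88, limma adjusted p = 0.0473) and 1 lower (Pdcd10, -0.73, 0.0475) than ESC over 12 arrays, and 4 higher and 1 lower over 10. With centred arrays these were 1 and 1, and 2 and 2. On the deposited scale 8.14% of all genes were higher and 5.66% lower over 12 arrays, and 21.8% and 20.8% over 10. The kinase gene Stk26 was lower in KD1 than in scrambled RA cells, at -1.38 or 2.61-fold (adjusted p = 0.0299 over 12 arrays and 0.000769 over 10), and at -1.01 in stem cells (0.344 and 0.0163). Its relative Stk24 was at -0.49 in RA (0.078 and 0.0112) and at -0.57 in stem cells (0.224 and 0.0218). In KD2 0 of 9 were called in either state over 12 arrays, where 0.0853% of all genes were called in ESC and 0.271% in RA. At an unadjusted p under 0.05 there were 0 of 9 in ESC, beside 2057 of 19938 genes. In RA there was 1, beside 2590 genes.

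Among 13 genes of the related phosphatases PP1, PP4, PP5 and PP6, 0 were called between scrambled RA and ESC by limma over 12 arrays. At an unadjusted p under 0.05 there were 4 of 13, beside 7654 of 19938 genes. Over 10 arrays 2 rose and 5 fell. Of all genes 13.8% were called over 12 arrays, and 21.8% rose and 20.8% fell over 10. Ppp6r2, a regulatory subunit of PP6, rose by 1.05 (adjusted p = 0.00167), and Ppp4r3a, a regulatory subunit of PP4, fell by 0.44 (0.00523). With centred arrays 0 rose and 4 fell over 12, and 1 rose and 6 fell over 10, beside 27.0% and 53.7% of all genes called. The list's median was -0.04, the same as for all genes.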
